A study of Rattus norvegicus with 9 samples.

Results

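The genes described here are the homeostatic signature of microglia, the resident macrophages of the retina, and the receptors and transcription factors that set and hold that identity. A list of 38 symbols was chosen by name, with earlier results of these data known. Its members were the rows of the gene count table that carry those symbols. The table had 28343 rows, and 37 of the 38 symbols had a row. Il6ra had none. RefSeq lists Il6ra as a synonym of Il6r, and the Il6r row is given separately below. Of the 37 members, 35 passed the filter on low counts and were tested among 11748 genes. Siglech and Crybb1 did not pass it. By role, the list held 21 genes of surface, secreted and intracellular signalling proteins typical of resting microglia, 4 cytokine receptors, 4 genes of TGF-beta signalling and 9 transcription factors.

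Microglia depend on signals through the colony-stimulating factor receptor Csf1r for survival, and on TGF-beta for their mature state. TGF-beta ligand binds Tgfbr2, which recruits and activates Tgfbr1, and Tgfbr1 phosphorylates Smad2 and Smad3, which then act on target genes in the nucleus. Spi1 (PU.1) and Irf8 set the myeloid lineage, and Sall1 together with the MEF2 factors marks the microglial programme that separates these cells from other macrophages. In retinal and brain injury the resting signature, with genes such as Cx3cr1 and Tmem119, is commonly lowered while inflammatory genes rise.

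All animals were Dark Agouti rats, an inbred strain. Diabetic rats received streptozotocin, a toxin of pancreatic beta cells, at 55 mg/kg, and control rats received citrate buffer, in both cases after 12 hours without food. Age at induction was 8 to 10 weeks, and retinas were taken 4 weeks later. Insulin (2 units) was given to diabetic rats whose glucose passed 30 mmol/l, so the diabetic group is a toxin-induced model with insulin support. Papain-digested whole retinas were labelled for CD11b and sorted by flow cytometry, and the RNA was amplified with a SmartSeq kit before library preparation. CD11b is also carried by border macrophages and blood myeloid cells. There were 5 control and 4 diabetic libraries. The labels do not say whether each library came from 1 rat, whether retinas were pooled or what sex the animals had, so p-values measure only the spread between these libraries.

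The 5 control libraries (numbers 1, 3, 4, 5 and 6) held 9156591 to 11332823 counts and the 4 diabetic libraries (numbers 1, 2, 4 and 5) held 6228756 to 9629829. Levels are given as normalised CPM (counts scaled to a common library total), in which the library total is scaled by a TMM factor (0.839 to 1.07). CPM is not corrected for gene length, so it is compared here only within a gene. Libraries differed in ways that bear on the members. Genes of the immediate response to cell isolation held 2.23% of the counts in control 4 and 2.77% in control 6, 0.412% to 0.948% in the other controls and 1.23% to 1.96% in the diabetic libraries. Genes of inflammatory activation held 1.34% in control 4, 2.16% in control 6, 0.133% to 0.286% in the other controls and 0.258% to 0.620% in diabetic libraries. The summed level of 10 border macrophage markers (of 11 listed, none at 0) was 433 to 904 CPM in control and 745 to 1647 CPM in diabetic libraries, and that of 12 blood leukocyte markers was 5.16 to 15 CPM and 26.2 to 93.8 CPM, with Ccr2 and Lcn2 at 0 in all libraries. Photoreceptor markers summed to 242 to 1318 CPM and 387 to 1874 CPM, and inner retinal neuron markers to 74.8 to 169 CPM and 112 to 341 CPM. Müller glia and astrocyte markers summed to 2322 to 2562 CPM in control and 1940 to 2129 CPM in diabetic libraries. This sum rested mostly on Glul (1155 to 1310 CPM and 1062 to 1123 CPM) and Slc1a3 (789 to 975 CPM and 601 to 807 CPM). Rlbp1 (25.5 to 56.3 CPM and 24.2 to 60.3 CPM), Aqp4 and Gfap were far lower and overlapped between groups. Of the 8 tested, 6 were below 0 and 2 above. Vascular markers summed to 215 to 400 CPM and 171 to 251 CPM. The part of any of these in the results below was not tested.

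The sorted cells carried most of the markers that define microglia. Csf1r, the receptor of CSF1 and IL-34, was at 10534 to 12116 CPM in control and 9530 to 10384 CPM in diabetic libraries. P2ry12, a purinergic receptor of resting microglia outside the list, was at 1368 to 1919 CPM and 1495 to 1786 CPM. Siglech, a sialic acid receptor used as a microglial marker in mice, had a count of 0 in all 9 libraries, which allows up to 0.0355 CPM over the series (3 counts of the summed total, for counting error only). Its relative Cd33 was counted in every library. Crybb1, a crystallin gene, had 5 counts in the whole series. Olfml3, a secreted matrix protein and a microglial marker in mice, had 12 to 51 counts per library. Related genes such as Siglech and Cd33, Sall1 and Sall3, or Mef2a and Mef2c can share or lose reads in the counting.

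**Figure D1:**
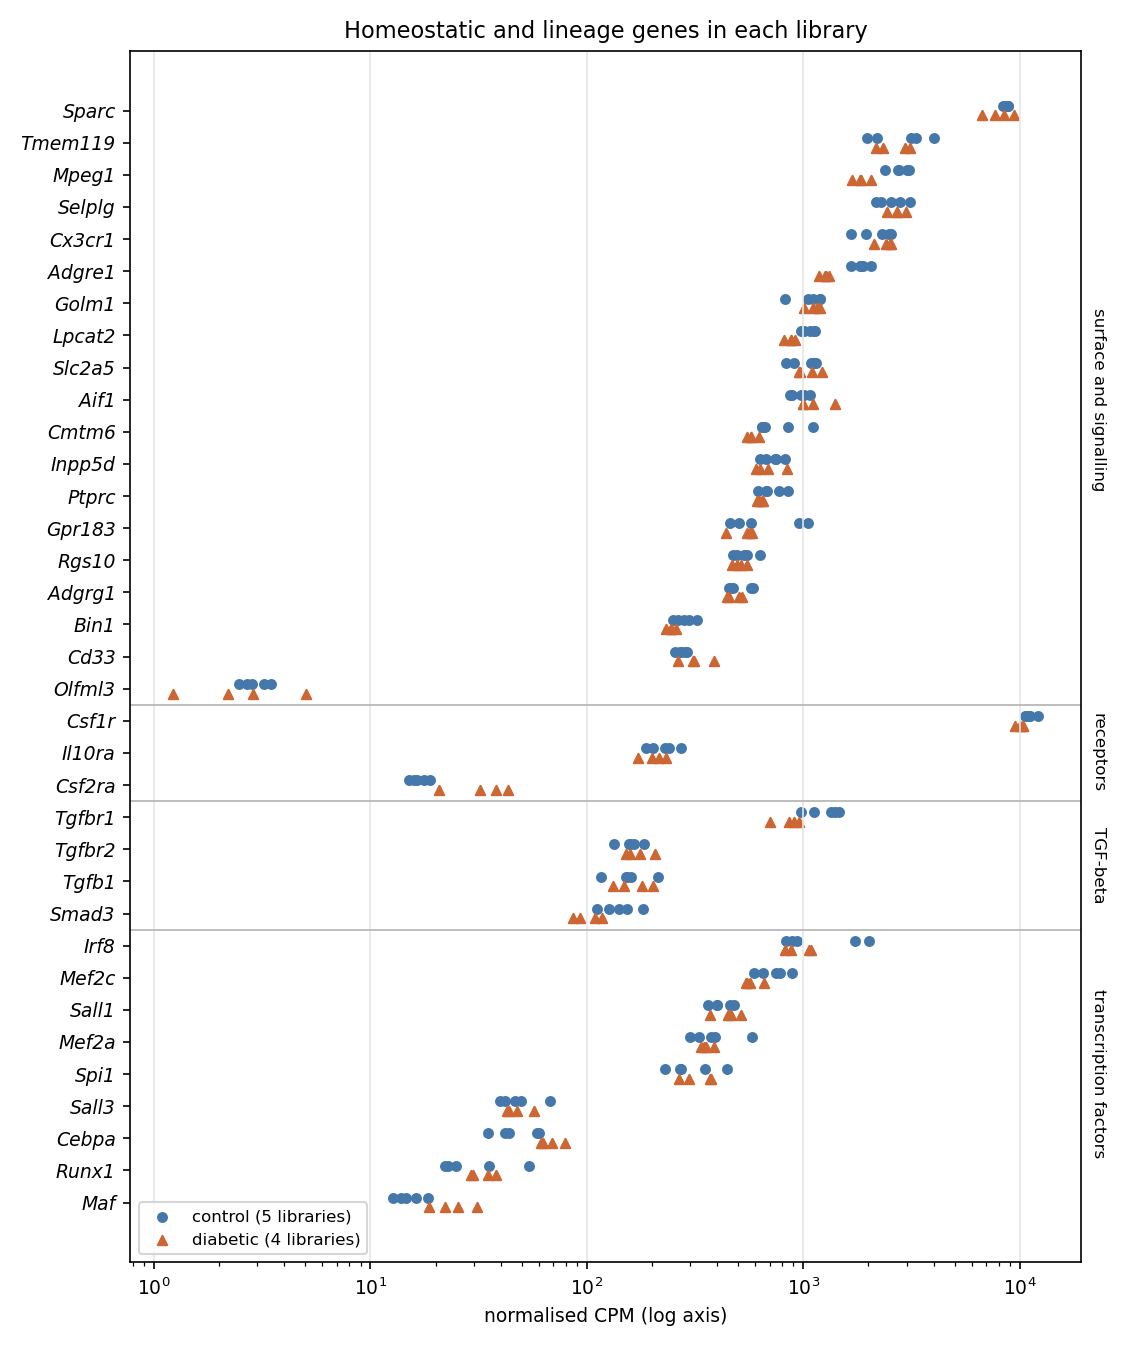
Normalised CPM (horizontal log axis) of the 35 tested members, grouped by role and ordered by their control mean. Each circle is a control library and each triangle a diabetic library. For Adgre1, Mpeg1 and Lpcat2 the triangles lie to the left of all circles, and for Csf2ra they lie to the right.

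Levels per unit of length came from the authors' assembled transcripts, as TPM (a length-corrected share of transcripts) summed over assemblies that share exon bases with a member's reference transcript. This was possible for the 24 members with a single locus. On the TPM scale Csf1r was the most abundant member in the control libraries (4146 to 10447 TPM), and Sparc, a secreted matrix glycoprotein, was next (1977 to 4787 TPM). These ranges overlapped, so their order is not fixed by the data. Mpeg1 (839 to 1211 TPM) and Aif1 (563 to 1600 TPM) overlapped each other below the lowest Sparc value. Among transcription factors, Irf8 (429 to 935 TPM) and Spi1 (295 to 666 TPM) overlapped, Sall1 lay below both (104 to 140 TPM), and Sall3 (17.6 to 21.6 TPM) and Cebpa (12.5 to 20.1 TPM) lay below Sall1. Maf spread from 8.61 to 77 TPM and overlapped both Sall3 and Cebpa, so the order of these 3 is not fixed. Tgfbr2 (146 to 249 TPM) lay above its ligand Tgfb1 (47.1 to 133 TPM) in every control library range. These sums are coarser than the counts: for Adgre1 they spread from 448 to 805 TPM in control and 392 to 634 TPM in diabetic libraries, and for Mpeg1 from 839 to 1211 TPM and 702 to 920 TPM, so the groups overlapped on this scale.

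The comparison asked which of these genes differ in microglia of rats with early diabetes. By the quasi-likelihood test of edgeR, with p-values adjusted over all genes tested by the Benjamini-Hochberg method, 2 of the 35 members passed an adjusted p of 0.05, both lower in diabetic libraries. Over all genes 0.0681% passed, 0.0255% passed as lower and 0.0426% as higher. At an adjusted p below 0.1 there were 2 higher members, Csf2ra and Maf (1.05% of all genes), and 3 lower, Adgre1, Mpeg1 and Tgfbr1 (0.851%). DESeq2's Wald test, run without the filter on low counts, put 7 members past 0.05: these 5 together with Lpcat2 and Smad3. There 599 of 17805 genes passed (3.36%), a wider set than the 11748 genes of the edgeR test. The median log2 fold change of the 35 was -0.082 against 0.0017 over all genes, with 14 members above 0 and 21 below. At an unadjusted p under 0.05 there were 12 members, 3 higher and 9 lower, against 18.9% of all genes (8.94% higher and 10.0% lower). For 9 members the groups did not overlap, with 3 higher and 6 lower in diabetic libraries, against 8.44% of all genes (4.27% higher and 4.16% lower). The 9 were Adgre1, Mpeg1, Lpcat2, Cmtm6, Csf1r and Tgfbr1, all lower, and Csf2ra, Maf and Cebpa, all higher. In bulk RNA of a sorted population, fewer cells that express a gene and less RNA per cell cannot be told apart.

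The members called depended on the libraries. Adgre1 and Mpeg1 both kept an adjusted p below 0.05 without control 1 (0.0226 and 0.0238), and 4 members passed in that fit, where 0.646% of all genes did. Without control 6 only Adgre1 passed (0.0471, with 0.0552 for Mpeg1), and without diabetic 2 neither did (0.0915 and 0.0956), while Csf2ra did. No member passed without control 3 (0.0836 for both), control 4 (0.0722 and 0.128), control 5 (0.1 and 0.107), diabetic 1 (0.0855 and 0.139), diabetic 4 (0.196 and 0.207) or diabetic 5 (0.0614 for both), nor without controls 4 and 6 together (0.0585 and 0.0694), where 0.00% of all genes passed. These are edgeR quasi-likelihood values. In each of these fits 10 to 13 members had an unadjusted p below 0.05, against 1528 to 2725 of the 11608 to 11958 genes tested. The log2 fold change stayed between -0.605 and -0.445 for Adgre1 and between -0.653 and -0.479 for Mpeg1 under all 17 alternatives.

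**Figure D2:**
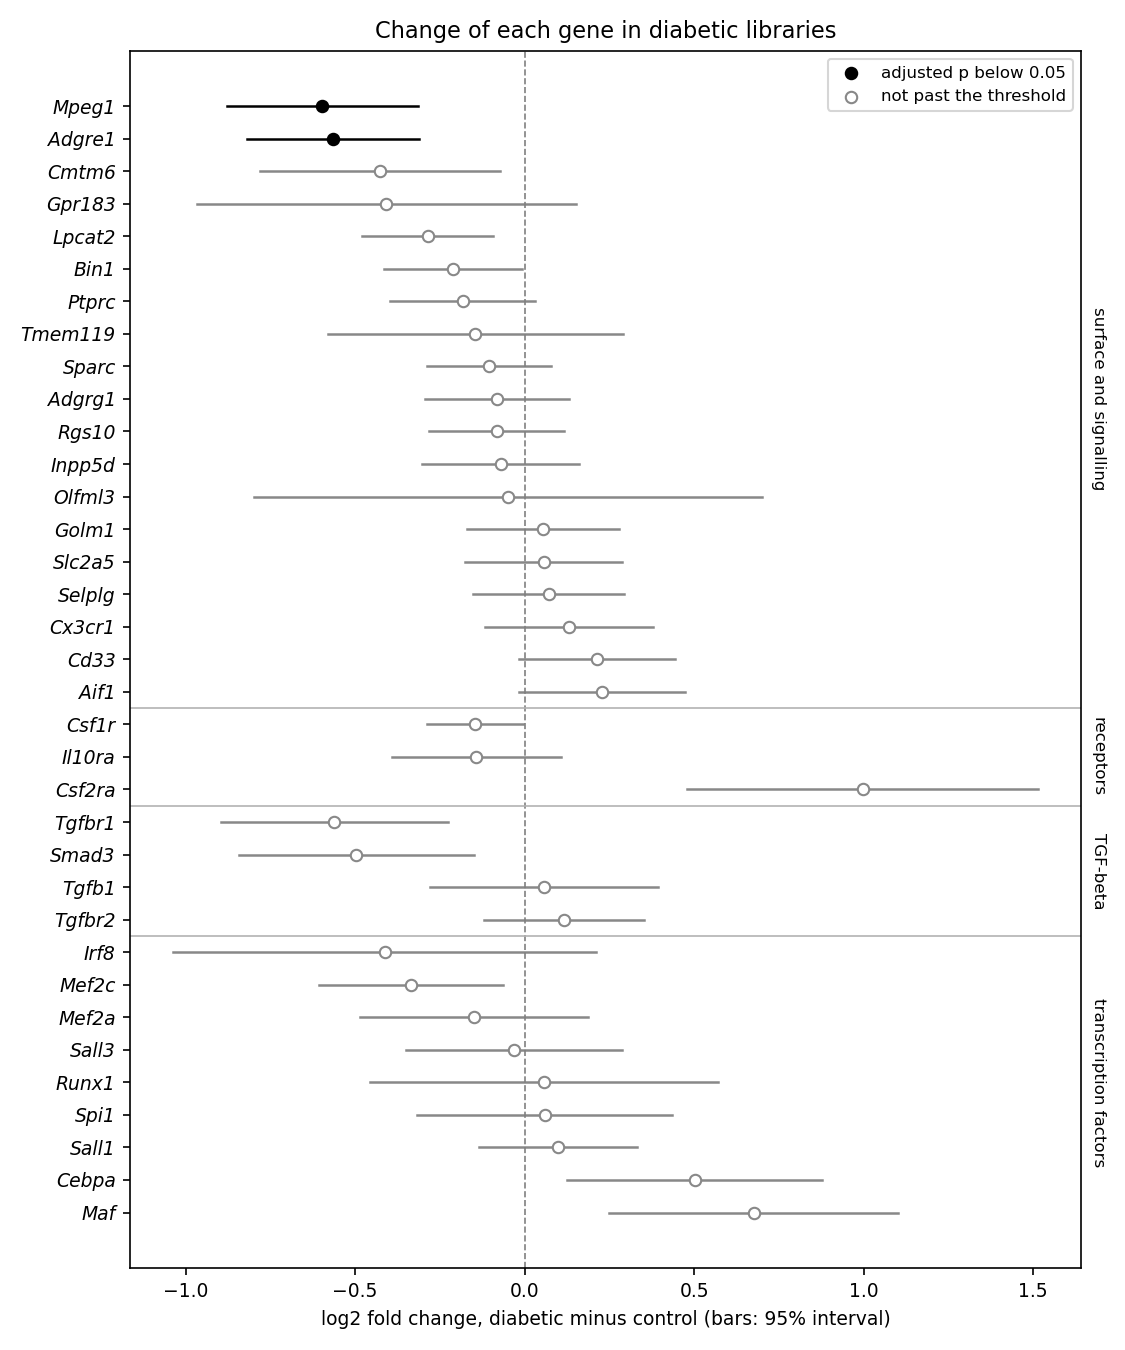
Log2 fold change, diabetic minus control (horizontal axis), of the 35 tested members by role, with 95% intervals as bars. The filled points are Adgre1 and Mpeg1, the members with an adjusted p below 0.05. Csf2ra, Maf and Cebpa lie farthest to the right.

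Adgre1 and Mpeg1 were the members with an edgeR adjusted p below 0.05, both lower in diabetic libraries. Adgre1 encodes F4/80, an adhesion G protein-coupled receptor of macrophages and microglia (ENSRNOG00000046254, Rnor6 chromosome 9, 9431860 to 9585865, minus strand, the span of its reference transcript). Controls 1, 3, 4, 5 and 6 had 1665, 1882, 1825, 1848 and 2063 CPM, and diabetic 1, 2, 4 and 5 had 1270, 1177, 1263 and 1307 CPM. All diabetic libraries lay below all controls, and the diabetic values were the more even. The log2 fold change was -0.57 (SE 0.13, adjusted p = 0.0380), a level 1.48-fold lower, on 7921 to 21679 counts per library. Mpeg1 encodes perforin-2, a pore-forming protein of phagocytes (ENSRNOG00000021084, Rnor6 chromosome 1, 228724900 to 228727160, plus strand). Its level was 2392, 2741, 3014, 3091 and 2764 CPM in the controls and 1829, 1843, 1676 and 2057 CPM in the diabetic libraries. The groups again did not overlap, and control 1 was the lowest control for both genes. The log2 fold change was -0.60 (SE 0.14, adjusted p = 0.0496), a level 1.51-fold lower. Without normalization factors, the edgeR log2 fold change was -0.445 for Adgre1 (adjusted p = 0.0575) and -0.479 for Mpeg1 (adjusted p = 0.0695), the same log2 fold changes as in the authors' deposited table. That setting moves the median of all genes to 0.117.

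The promoter windows of Adgre1 and Mpeg1, the members past the adjusted threshold, are shown. Each runs from 250 bases before to 50 bases after the RefSeq start site on GRCr8, a later build than Rnor_6.0. Capitals mark the core GAGGAA recognised by PU.1, the product of the member Spi1, on either strand. The Adgre1 window is chr9:2329190-2329489 and the Mpeg1 window is chr1:218876644-218876943, both on the plus strand of that build.
Adgre1: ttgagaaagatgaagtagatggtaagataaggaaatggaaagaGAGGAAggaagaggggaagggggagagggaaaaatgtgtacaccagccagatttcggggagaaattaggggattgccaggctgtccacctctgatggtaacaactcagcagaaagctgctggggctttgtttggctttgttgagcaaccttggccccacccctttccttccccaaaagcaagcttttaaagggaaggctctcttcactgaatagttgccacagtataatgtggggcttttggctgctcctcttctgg
Mpeg1: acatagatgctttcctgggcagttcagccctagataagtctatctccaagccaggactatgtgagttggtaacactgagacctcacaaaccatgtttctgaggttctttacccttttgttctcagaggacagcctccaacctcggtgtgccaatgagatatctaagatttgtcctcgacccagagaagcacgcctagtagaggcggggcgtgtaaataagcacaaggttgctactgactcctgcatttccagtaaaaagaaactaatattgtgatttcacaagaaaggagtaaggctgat
The Adgre1 window held the core once, starting 207 bases before the start site, and also held the MAF core TGCTGA once on the opposite strand, 103 bases before it. The Mpeg1 window held neither, nor the RUNX site TGTGGT, the SMAD site CAGACA or a MEF2 site (CTA and TAG with NNNN between them). Promoter windows were matched for 31 of the 38 symbols (Il6ra as Il6r). The PU.1 core was in 9 of the 31 (29.0%) and in 27.6% of all 33469 windows of that length. The RUNX site was in 6.45% against 17.3%, the SMAD site in 16.1% against 21.1%, the MAF core in 19.4% against 18.4% and the MEF2 site in 9.68% against 3.84%, the last resting on Cx3cr1, Il10ra and Mef2a. These are matches of letters in a short window and not binding sites.

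Of the other surface and signalling genes, 17 were tested and none passed the adjusted threshold in edgeR (1, Lpcat2, in DESeq2). An unadjusted p below 0.05 was found for 3 of them, all with lower diabetic means, against 18.9% of all genes (10.0% lower). Lpcat2, a lysophospholipid acyltransferase that makes platelet-activating factor, was at 1120, 1131, 1006, 1072 and 971 CPM in controls and 815, 912, 875 and 877 CPM in diabetic libraries, with no overlap (log2 fold change -0.29, SE 0.10, adjusted p = 0.118). Cmtm6, a membrane protein that stabilises PD-L1, was at 641, 667, 845, 643 and 1105 CPM and at 572, 547, 575 and 626 CPM. Its controls spread 1.72-fold, with controls 4 and 6 the highest, and diabetic 5 lay just below control 1 (log2 fold change -0.43, SE 0.18, adjusted p = 0.183). Without control 6 the Cmtm6 difference was -0.269 on the log2 scale, and without controls 4 and 6 it was -0.174. Bin1, a membrane-bending adaptor, was at 283 ± 28.7 CPM (SD, n = 5) and 244 ± 10.9 CPM (SD, n = 4), with an overlap of groups (edgeR adjusted p = 0.246).

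The defining genes of resting microglia showed no difference beyond the spread between libraries. Cx3cr1, the receptor of the neuronal chemokine fractalkine, was at 2483, 2300, 1946, 2540 and 1669 CPM in controls and 2129, 2515, 2535 and 2401 CPM in diabetic libraries. All diabetic values lay within the control range, and the 95% interval of the log2 fold change was -0.12 to 0.38. Its direction turned without controls 4 and 6 (-0.036). Tmem119, a membrane protein restricted to microglia among brain macrophages, was at 4022, 3308, 2190, 3139 and 1962 CPM and at 2962, 3108, 2337 and 2172 CPM, and its controls spread 2.05-fold, with an interval from -0.58 to 0.29. The Tmem119 log2 fold change of -0.145 depended on the libraries, at -0.003 without control 1 and -0.409 without controls 4 and 6. Selplg, the P-selectin ligand, was at 2582 ± 388 CPM (SD, n = 5) and 2712 ± 221 CPM (SD, n = 4), with an interval of -0.15 to 0.29. Slc2a5, a fructose transporter, was at 1018 ± 139 CPM (SD, n = 5) and 1058 ± 122 CPM (SD, n = 4), with an interval of -0.18 to 0.29. Golm1, a Golgi membrane protein, was at 1074 ± 152 CPM (SD, n = 5) and 1116 ± 82.8 CPM (SD, n = 4). A difference of the size seen for Adgre1 lay outside the intervals of Cx3cr1, Selplg, Slc2a5 and Golm1 (-0.17 to 0.28), and within that of Tmem119.

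The remaining surface genes had adjusted p-values of 0.292 to 0.955. Aif1 (Iba1), the actin-binding protein used to stain microglia, was at 980, 1071, 1006, 871 and 883 CPM in controls and 1114, 999, 1401 and 997 CPM in diabetic libraries, with diabetic 4 the highest. Cd33, an inhibitory sialic acid receptor, was at 274 ± 13.7 CPM (SD, n = 5) and 318 ± 50.7 CPM (SD, n = 4), and diabetic 4 was again the highest (386 CPM). Without diabetic 4 the log2 fold change was 0.107 for both, from 0.23 for Aif1 and 0.21 for Cd33. Sparc was nearly even among controls (8375 to 8869 CPM) and spread from 6719 to 9398 CPM among diabetic libraries, so its mean difference (log2 fold change -0.11) was smaller than the diabetic spread. Gpr183, an oxysterol receptor that guides immune cells, was at 957 and 1055 CPM in controls 4 and 6, 458 to 573 CPM in the other controls and 437 to 582 CPM in the diabetic group. The difference of -0.41 on the log2 scale turned to 0.052 without controls 4 and 6. Ptprc (CD45), the phosphatase of all leukocytes, was at 720 ± 93.3 CPM (SD, n = 5) and 634 ± 18.9 CPM (SD, n = 4). Adgrg1, Rgs10 and Inpp5d, which encode an adhesion receptor, a regulator of G protein signalling and the phosphatase SHIP1, had log2 fold changes of -0.083, -0.082 and -0.070. Olfml3 was at 2.94 ± 0.412 CPM (SD, n = 5) and 2.84 ± 1.62 CPM (SD, n = 4), and its direction turned under 6 of 17 alternatives.

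Among cytokine receptors, Csf2ra had the largest fold of all members. It encodes the alpha chain of the GM-CSF receptor. Controls 1, 3, 4, 5 and 6 were at 18.8, 16.4, 15, 17.7 and 15.9 CPM, and diabetic 1, 2, 4 and 5 at 31.9, 20.8, 43.2 and 38.1 CPM. Every diabetic library lay above every control, although diabetic 2 lay close to them. The log2 fold change was 1.00 (SE 0.26), with an edgeR adjusted p of 0.0620, short of the threshold, on 123 to 381 counts per library. It passed without control 1 (0.0460) and without diabetic 2 (0.0300), and 6 of 17 alternatives in all put it below 0.05. In the authors' deposited table, where 2.10% of genes had an adjusted p below 0.05, Csf2ra stood at 1.10 on the log2 scale with an adjusted p of 0.000349. Adjusted p-values for Adgre1 and Mpeg1 in the authors' deposited table were 0.381 and 0.403.

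Csf1r was at 11105, 10534, 10789, 12116 and 11067 CPM in controls and 9975, 9530, 10305 and 10384 CPM in diabetic libraries. The groups did not overlap, but the difference was small (log2 fold change -0.15, SE 0.07) and did not pass (adjusted p = 0.249). Il10ra, the ligand-binding chain of the IL-10 receptor, was at 226 ± 32.3 CPM (SD, n = 5) and 205 ± 24.9 CPM (SD, n = 4). The Il6r row, the IL-6 receptor alpha chain, was at 341 ± 50.8 CPM (SD, n = 5) and 337 ± 31.4 CPM (SD, n = 4), with a log2 fold change of -0.014. Among 21 other genes of these receptor pathways, 20 were tested and 0 passed by edgeR (2 by DESeq2, 0 by limma-voom). By an unadjusted p under 0.05, 1 was higher and 3 were lower, against 8.94% and 10.0% of all genes. The smallest p in the higher direction belonged to Tyrobp, the DAP12 adaptor, with 651 ± 104 CPM (SD, n = 5) and 899 ± 208 CPM (SD, n = 4), and in the lower direction to the kinase Jak1, with 586 ± 57.1 CPM (SD, n = 5) and 464 ± 38.2 CPM (SD, n = 4). Their edgeR adjusted p-values were 0.153 and 0.123, and the groups did not overlap for Jak1. The genes that passed by DESeq2 were Jak1 and Jak2, the latter named after its values were seen.

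**Figure D3:**
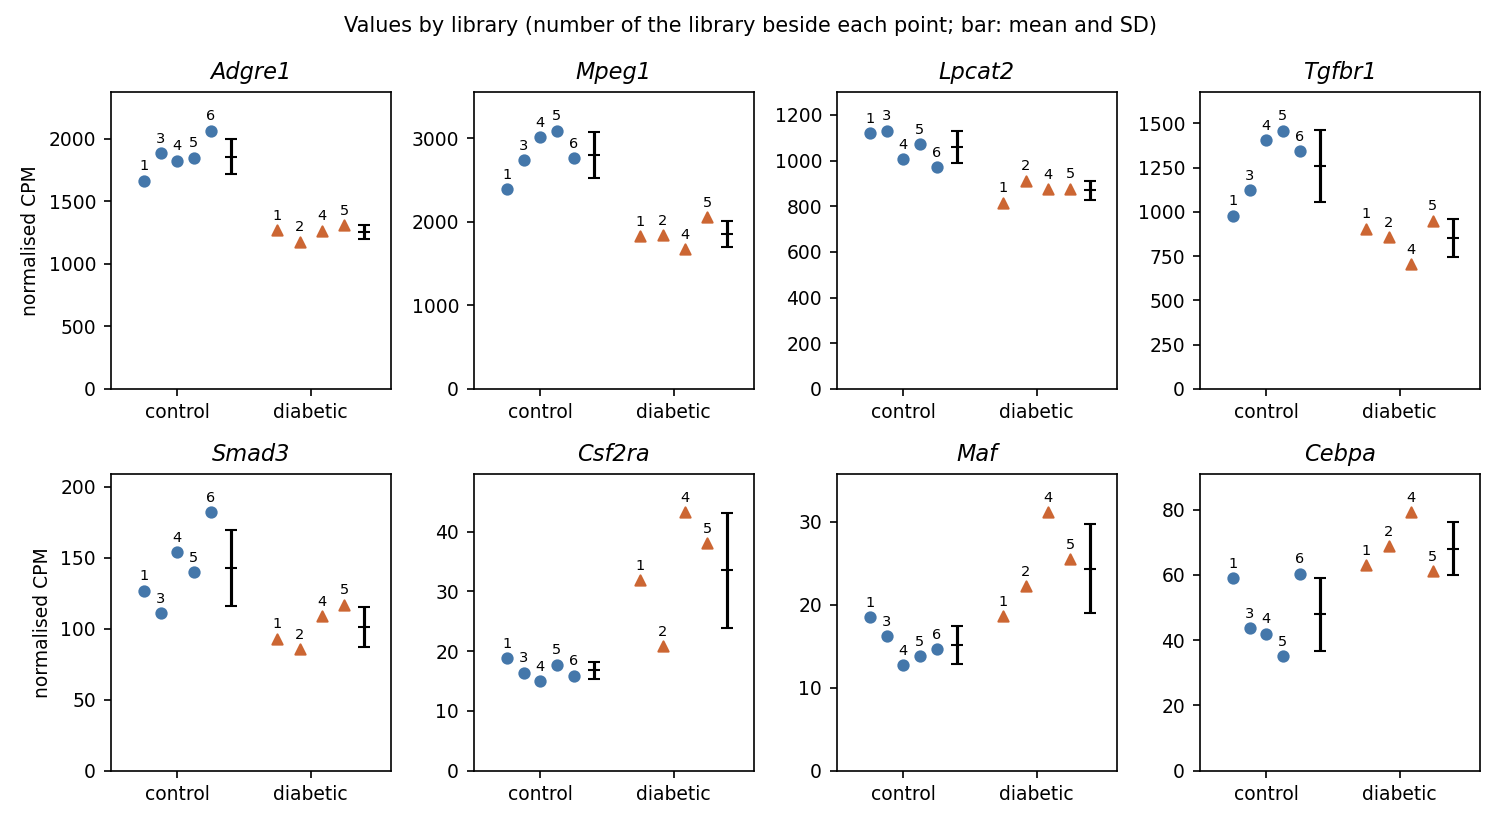
Normalised CPM (vertical axis, from 0) of 8 members in each library, circles for control and triangles for diabetic, with the library number beside each point and the mean with SD at the right of each group. The groups are separate in all panels except that of Smad3, and nearly touch for Maf and Cebpa.

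In TGF-beta signalling, the receptor Tgfbr1 and its effector Smad3 had lower means in diabetic libraries, and the ligand Tgfb1 and receptor Tgfbr2 did not. None passed the adjusted threshold in edgeR, and Tgfbr1 and Smad3 passed in DESeq2. In edgeR 2 of the 4 had an unadjusted p below 0.05, against 18.9% of all genes. Tgfbr1, a symbol with several gene identifiers in the assemblies, was at 978, 1121, 1405, 1458 and 1342 CPM in controls and 904, 858, 703 and 951 CPM in diabetic libraries. The groups did not overlap, and control 1 lay closest to the diabetic libraries. The log2 fold change was -0.56 (SE 0.17, adjusted p = 0.0896), and without control 1 it was -0.64 (adjusted p = 0.0460). Smad3 was at 127, 111, 154, 140 and 182 CPM and at 93.0, 85.8, 109 and 117 CPM. Diabetic 5 lay above control 3, and controls 4 and 6 were the highest (log2 fold change -0.50, SE 0.18, adjusted p = 0.123, and -0.33 without controls 4 and 6). Tgfbr2 was at 160 ± 17.9 CPM (SD, n = 5) and 173 ± 24.2 CPM (SD, n = 4), with a 95% interval of -0.12 to 0.35. Tgfb1 was at 159 ± 34.9 CPM (SD, n = 5) and 165 ± 30.6 CPM (SD, n = 4), with an interval of -0.28 to 0.39. Whether the difference in Tgfbr1 differs from that in Tgfbr2 was not tested.

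Of 29 other genes of the TGF-beta pathway, 25 were tested and 0 passed by edgeR (1 by DESeq2, 0 by limma-voom). By an unadjusted p under 0.05, 1 was higher and 3 were lower, against 8.94% and 10.0% of all genes. The median log2 fold change of the 25 was -0.24, against 0.0017 over all genes. Of the 25, 19 were below 0, against 5843 of all 11748 genes. Some of the 19 had widely spread controls that overlapped the diabetic libraries. Tgif1 was at 44.4 to 585 CPM in controls and 43.5 to 95.7 CPM in diabetic libraries. Skil was at 108 to 597 CPM and 80.4 to 177 CPM. Both were named after their values were seen. Of the 25, the groups did not overlap for 2 lower genes and 1 higher gene, against 4.16% and 4.27% of all genes. The smallest p among higher genes was that of the ligand Tgfb2, with 24.0 ± 3.14 CPM (SD, n = 5) against 45.0 ± 18.9 CPM (SD, n = 4) and no overlap of groups. Among lower genes it was that of Ltbp1, which holds latent TGF-beta in the matrix, with 2.97 ± 0.937 CPM (SD, n = 5) and 1.32 ± 0.674 CPM (SD, n = 4), also with no overlap. Their edgeR adjusted p-values were 0.0991 and 0.180.

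Of the transcription factors, 0 of 9 passed by edgeR (1, Maf, by DESeq2, and 0 by limma-voom). By an unadjusted p under 0.05, 2 were higher and 1 was lower, against 8.94% and 10.0% of all genes. Maf, a large MAF-family factor of macrophages, was at 18.5, 16.2, 12.7, 13.8 and 14.6 CPM in controls and 18.6, 22.2, 31.1 and 25.5 CPM in diabetic libraries. All diabetic libraries lay above all controls, but diabetic 1 and control 1 were almost equal (log2 fold change 0.68, SE 0.22, adjusted p = 0.0991). Cebpa, a factor of early myeloid differentiation, was at 59.0, 43.6, 41.9, 35.0 and 60.3 CPM and at 63.0, 68.7, 79.1 and 61.1 CPM. Controls 1 and 6 lay just below the lowest diabetic library (log2 fold change 0.50, SE 0.19, adjusted p = 0.143). On the coarser TPM scale the groups overlapped for both genes. Maf was at 8.61 to 77 TPM in control and 49 to 72.6 TPM in diabetic libraries, and Cebpa at 12.5 to 20.1 TPM and 10.7 to 23.9 TPM. In the authors' deposited table Maf and Cebpa were listed with log2 fold changes of 0.78 and 0.62 and adjusted p-values of 0.0274 and 0.0398. Border macrophage markers were also higher in diabetic libraries on the summed scale above, with 10 of 10 tested above 0 and a median log2 fold change of 0.89. None of the 10 passed by edgeR, 6 had an unadjusted p below 0.05 (18.9% of all genes did), and 5 passed by DESeq2. Border macrophages express Maf and Cebpa too, and the part of those cells in these values was not tested.

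Mef2c was at 594, 654, 779, 747 and 885 CPM in controls and 566, 545, 548 and 660 CPM in diabetic libraries, with an overlap (log2 fold change -0.34, SE 0.14, adjusted p = 0.171, and -0.206 without controls 4 and 6). Its relative Mef2a was at 396 ± 110 CPM (SD, n = 5) and 357 ± 20.9 CPM (SD, n = 4). Sall1, the zinc-finger factor that separates microglia from other macrophages, was at 477, 457, 401, 398 and 362 CPM and at 369, 464, 515 and 448 CPM, and the groups overlapped over most of their range, with an interval of -0.13 to 0.33. Its relative Sall3 was at 48.9 ± 11 CPM (SD, n = 5) and 47.8 ± 6.49 CPM (SD, n = 4). Spi1 was at 273, 230, 353, 268 and 445 CPM and at 295, 267, 374 and 372 CPM, with an interval of -0.32 to 0.44. Irf8 was at 833, 885, 1735, 938 and 2012 CPM in controls and 880, 824, 1059 and 1083 CPM in diabetic libraries. Its controls spread 2.42-fold through controls 4 and 6, and without these its log2 fold change of -0.41 became 0.11. Runx1 was at 31.9 ± 13.5 CPM (SD, n = 5) and 33.0 ± 4.37 CPM (SD, n = 4), with 54.2 CPM in control 6.

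Of 27 other lineage factors, 25 were tested and 0 passed by edgeR (1 by DESeq2, 0 by limma-voom), with a median log2 fold change of -0.0046. By an unadjusted p under 0.05, 3 were higher and 3 were lower, against 8.94% and 10.0% of all genes. The smallest p among lower genes was that of Cbfb, the partner of the RUNX factors, at 268 ± 36.1 CPM (SD, n = 5) and 219 ± 16.0 CPM (SD, n = 4), with an overlap of groups (edgeR adjusted p = 0.193). Of 27 further homeostatic genes outside the list, 25 had a row and 20 were tested, with a median of -0.062. None passed by edgeR (3 by DESeq2, 0 by limma-voom). Here 2 were higher and 3 lower by an unadjusted p under 0.05, against 8.94% and 10.0% of all genes. The smallest p among higher genes was that of Ltc4s, the leukotriene C4 synthase, at 40.8 ± 6.07 CPM (SD, n = 5) and 75.9 ± 21.3 CPM (SD, n = 4) (edgeR adjusted p = 0.0711). Its groups did not overlap.

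**Figure D4:**
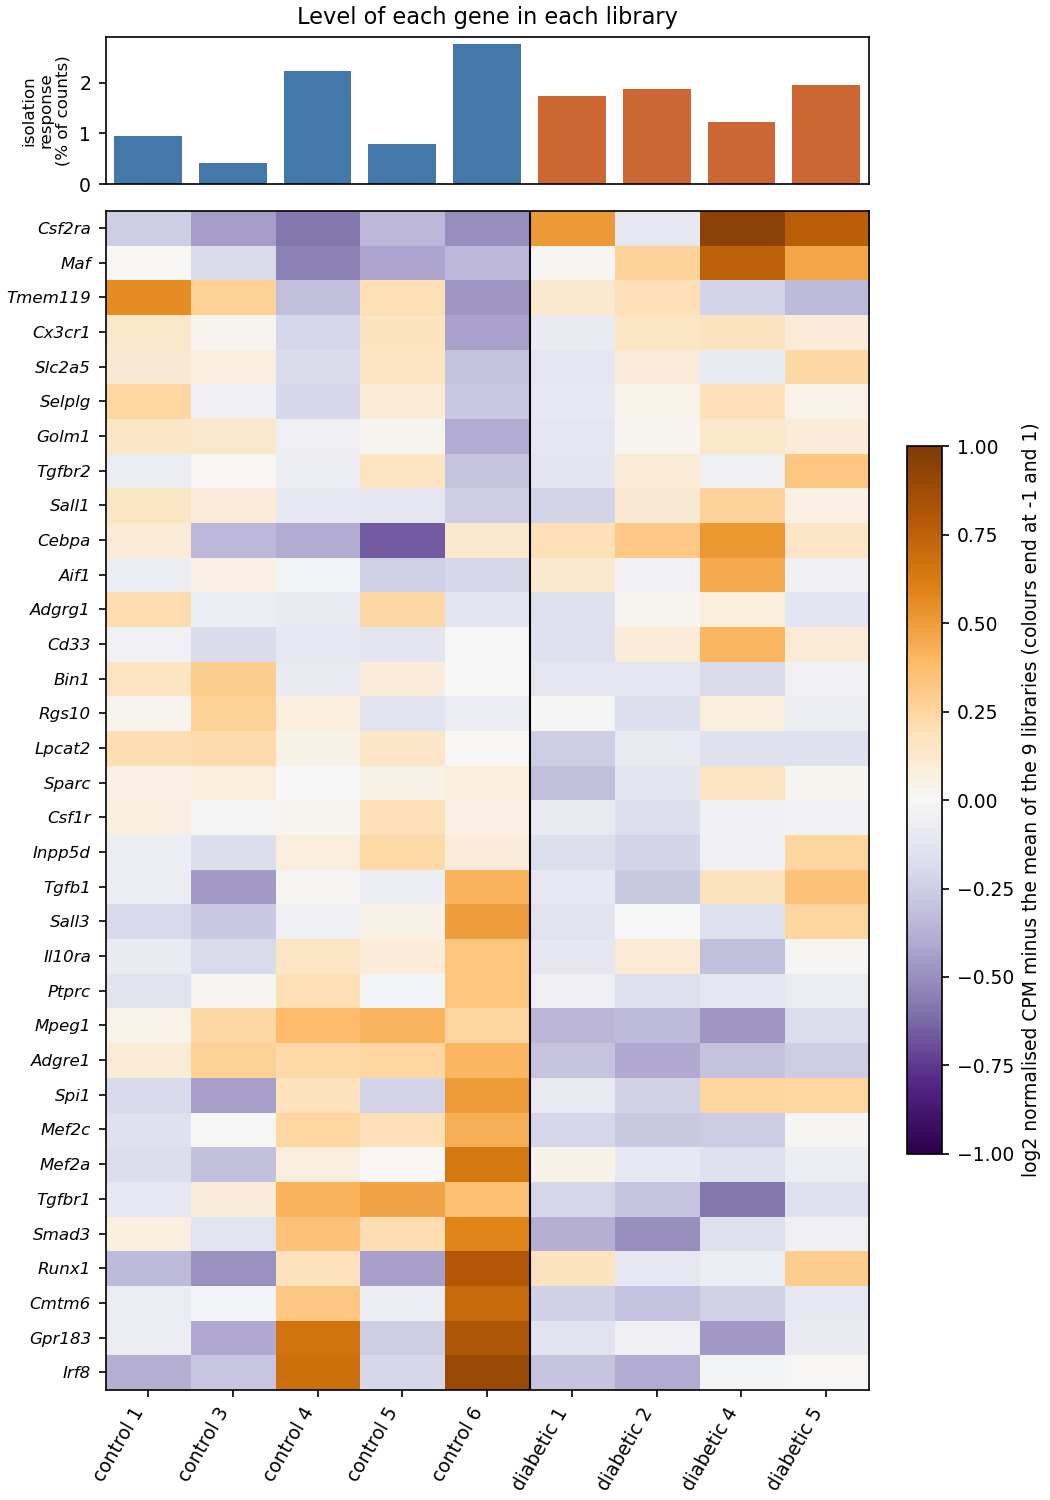
Lower panel: log2 normalised CPM of 34 tested members (rows; Olfml3 left out for its low counts) in the 9 libraries (columns), as the difference from the mean of the libraries, with rows ordered by their level in controls 4 and 6. Upper panel: share of counts on the isolation response list. Controls 4 and 6, with the tallest bars, are low for Tmem119 and Cx3cr1 and high for Irf8 and Gpr183.

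The members also varied among the control libraries. In controls 4 and 6, the libraries with the most isolation and inflammatory counts, 9 of the 35 members were below the 3 other controls (25.7%, against 20.3% of all genes tested). They were Cx3cr1, Tmem119, Selplg, Slc2a5, Golm1, Adgrg1, Bin1, Lpcat2 and Csf2ra. A further 12 members were above the 3 other controls there (34.3%, against 21.3% of all genes): Irf8, Spi1, Runx1, Mef2a, Mef2c, Smad3, Tgfb1, Il10ra, Gpr183, Cmtm6, Ptprc and Olfml3. Control 6 alone was the highest control for 17 of 35 members (48.6%, against 26.1% of all genes). The median coefficient of variation of the 35 members was 14.1% among control and 12.4% among diabetic libraries, against 18.4% and 15% for all genes tested. Among controls it was highest for Irf8 (43.1%), Runx1 (42.5%) and Gpr183 (38.8%), and lowest for Sparc (2.31%).

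With the mean level of the isolation response list as a covariate, 10 of 35 members passed by edgeR, where 10.9% of all genes did. Adgre1 (adjusted p = 0.00557) and Mpeg1 (0.00573) passed again, together with Tgfbr1 (0.0106), Smad3 (0.0130), Mef2c, Cmtm6, Lpcat2 and Gpr183 on the lower side, and Csf2ra (0.00776) and Maf (0.0179) on the higher side. Their log2 fold changes with the covariate were -0.57, -0.61, -0.59 and -0.51 for the genes named first and 1.01 and 0.70 for the last pair. The list was measured on the same libraries, and its mean level was higher in each diabetic library than in controls 1 and 3.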

How the data were processed

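RNA-seq of sorted rat retinal microglia was read from a gene count table of 5 control and 4 diabetic libraries. Raw counts per gene were deposited by the authors. Per the submitters' processing notes, reads were aligned with TopHat2 2.0.14 and assembled with StringTie 1.2.4 on Rnor_6.0, and edgeR was used. What program counted the reads, and whether by strand, is not given in the sources used, so overlapping and antisense genes cannot be told apart. The authors' deposited comparison table gives log2 fold changes, log2 CPM and p-values. TPM values are those in the authors' deposited transcript assemblies, summed per member over assemblies on either strand that share exon bases with its reference transcript.

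Counts were tested with edgeR 4.0.16 (R 4.3.3; filterByExpr with a minimum count of 10 and total of 15, TMM factors, robust quasi-likelihood F test, Benjamini-Hochberg adjustment, threshold 0.05). SE values were derived from each log2 fold change and its p through the normal distribution, and intervals are 95%. DESeq2 1.42.0, limma-voom (limma 3.58.1), other scaling and filters, a replicate block, an isolation covariate and leaving out libraries were alternatives. The procedure was also run on simulated data, with the outcome not reported here. No pair of libraries of a group agreed within sampling noise (chi-square per degree of freedom at least 11.7). Counts are reads, so floors cover counting error only.

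Members and lists were chosen with earlier results of these data known. All members are named; from each pathway list, the genes past the threshold or otherwise the smallest p in each direction. Some genes that this rule selects are not reported here. Promoter windows are from RefSeq (GRCr8).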

Additional observations from a re-analysis of the deposited data

How the results depend on the processing

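Depth did not limit most members, but Olfml3 (12 to 51 counts), Maf and Csf2ra rest on few reads. Against the 2 members called, Adgre1 and Mpeg1, there was 1 without normalization factors (Csf2ra, with neither of the 2), 1 with limma-voom (Adgre1), 7 with DESeq2, 10 with the isolation covariate and 0 without controls 4 and 6 (chosen after seeing the data). The 8 genes called over the whole table became 29 without normalization factors (28 higher), 42 without a filter, 599 with DESeq2, 4 with limma-voom, 1276 with the covariate and 0 without controls 4 and 6 (1775 at an unadjusted p below 0.05). Leaving out 1 library gave 0 to 4 members and 0 to 75 genes. The members' median log2 fold change was 0.0284 without normalization factors, where that of all genes was 0.117. Over 595 values of single members, 514 kept direction and side of the threshold, 22 lost the call, 18 gained it and 41 turned direction. All 22 lost calls were of Adgre1 or Mpeg1, which passed under 7 and 5 of 17 alternatives, and neither turned direction.

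No pairing by replicate number was seen: same-numbered libraries correlated at 0.201, -0.114 and 0.0156, and 1 of 3 controls correlated best with its own number. With only 3 pairs, these values cannot decide whether same-numbered libraries were handled together. With the replicate block, 0 genes and 0 members passed (1129 genes and 8 members at an unadjusted p below 0.05). That fit takes the group difference only from numbers 1, 4 and 5, which occur in both groups. The log2 fold change turned there for Golm1 (-0.001), Olfml3 (0.192), Rgs10 (0.007), Sall3 (0.05), Selplg (-0.003) and Slc2a5 (-0.016).

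Other turns of direction were all in members that did not pass, and the cause was not tested. Without normalization factors they were Adgrg1 (0.022), Inpp5d (0.046), Olfml3 (0.079), Rgs10 (0.028), Sall3 (0.102) and Sparc (0.005), and with limma-voom Sall3 (0.005). Without controls 4 and 6 they were Cx3cr1 (-0.036), Golm1 (-0.072), Gpr183 (0.052), Irf8 (0.11), Mef2a (0.081), Olfml3 (0.078), Sall3 (0.126), Selplg (-0.067) and Slc2a5 (-0.086). Leaving out 1 library gave -0.026 to 0.102 for Golm1, -0.234 to 0.031 for Mef2a, -0.5 to 0.205 for Olfml3, -0.048 to 0.333 for Runx1, -0.129 to 0.11 for Sall3, -0.018 to 0.103 for Slc2a5, -0.035 to 0.218 for Spi1 and -0.051 to 0.185 for Tgfb1.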
